A study of Mus musculus with 24 samples.

Results

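This report describes the 4 tropomyosin genes (Tpm1, Tpm2, Tpm3 and Tpm4) and the 4 alpha-actinin genes (Actn1, Actn2, Actn3 and Actn4) of the mouse. They were taken by symbol, and all 8 were present among the 24043 genes of the deposited expression table. Expression was measured by RNA-seq of total RNA in C2C12, an established mouse myoblast line that proliferates as single cells and fuses into myotubes when serum is withdrawn. Of the 24 samples in the series, the 8 RNA-seq libraries were used. The libraries of H3K27me3 chromatin and of input DNA were not used here. Normoxic growth medium (GM, 10% fetal bovine serum, 21% oxygen), normoxic differentiation medium (DM, 2% horse serum plus ITS, 21% oxygen), hypoxic growth medium (GM at 2% oxygen) and hypoxic differentiation medium (DM at 2% oxygen) had 2 libraries each, A and B. All 4 groups are the same unmodified cell line. The submitters call A and B biological replicates, and the labels state neither whether they were separate cultures nor the number of days in differentiation medium. A single line serves here as a model of skeletal muscle, so the p-values describe only the spread between these samples of it.

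Tropomyosins are coiled-coil dimers that lie along the actin filament. In striated muscle they work with the troponin complex to make contraction depend on calcium, and in other cells they stabilise stress fibres and govern which proteins reach the filament. Alpha-actinins are antiparallel dimers that cross-link actin filaments, in the Z-disc of the sarcomere or in stress fibres and focal adhesions. Actn2 and Actn3 are the muscle genes, with Actn3 typical of fast fibres, and Actn1 and Actn4 are the nonmuscle genes, whose actin binding is sensitive to calcium. The tropomyosin genes do not divide so cleanly. Tpm1, Tpm2 and Tpm3 each make striated muscle and cytoskeletal isoforms by alternative promoters and splicing, and Tpm4 in the mouse is mainly cytoskeletal. The values are 1 per gene, so isoforms of a tropomyosin gene cannot be told apart here.

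The sequences upstream of 6 of these genes are shown. On normoxic differentiation Tpm1, Tpm2 and Actn2 rose, and Tpm4, Actn1 and Actn4 fell. Tpm3 also fell, and its windows are not shown. The sequences come from the RefSeq promoter table (GRCm38.p6, a later build than the mm9 named for the expression data). That source matched 7 of the 8 symbols with 8 start sites, Tpm3 having 2. Actn3 had no entry. Each is the 250 bases before an annotated start, written 5′ to 3′ on the gene's strand, and capitals mark matches to the motifs searched. The windows are chr9:67049214-67049463 (minus strand) for Tpm1, chr4:43523555-43523804 (minus) for Tpm2, chr13:12340733-12340982 (minus) for Actn2, chr8:72135038-72135287 (plus) for Tpm4, chr12:80260364-80260613 (minus) for Actn1 and chr7:28962333-28962582 (minus) for Actn4.
Tpm1: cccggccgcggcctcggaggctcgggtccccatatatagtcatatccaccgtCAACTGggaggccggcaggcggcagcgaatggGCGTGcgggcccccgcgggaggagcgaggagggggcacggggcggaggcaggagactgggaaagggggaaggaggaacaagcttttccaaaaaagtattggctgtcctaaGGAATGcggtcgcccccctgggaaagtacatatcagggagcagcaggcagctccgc
Tpm2: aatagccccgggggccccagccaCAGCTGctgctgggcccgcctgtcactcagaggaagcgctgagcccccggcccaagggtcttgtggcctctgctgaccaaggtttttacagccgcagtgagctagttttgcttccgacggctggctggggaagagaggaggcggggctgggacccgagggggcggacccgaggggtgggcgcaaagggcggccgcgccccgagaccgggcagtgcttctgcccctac
Actn2: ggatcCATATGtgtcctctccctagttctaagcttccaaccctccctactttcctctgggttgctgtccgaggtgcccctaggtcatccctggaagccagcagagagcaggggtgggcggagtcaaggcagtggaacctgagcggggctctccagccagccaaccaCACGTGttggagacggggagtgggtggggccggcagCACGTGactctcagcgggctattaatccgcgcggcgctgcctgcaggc
Tpm4: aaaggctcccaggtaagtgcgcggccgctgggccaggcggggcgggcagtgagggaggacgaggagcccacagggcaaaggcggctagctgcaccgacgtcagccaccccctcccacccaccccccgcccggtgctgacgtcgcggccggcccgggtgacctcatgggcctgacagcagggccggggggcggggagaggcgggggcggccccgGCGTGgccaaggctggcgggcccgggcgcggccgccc
Actn1: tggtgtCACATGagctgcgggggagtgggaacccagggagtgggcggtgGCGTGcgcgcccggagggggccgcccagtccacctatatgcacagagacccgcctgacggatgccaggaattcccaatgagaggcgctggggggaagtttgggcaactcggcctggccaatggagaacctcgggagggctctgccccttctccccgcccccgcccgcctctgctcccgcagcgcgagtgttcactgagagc
Actn4: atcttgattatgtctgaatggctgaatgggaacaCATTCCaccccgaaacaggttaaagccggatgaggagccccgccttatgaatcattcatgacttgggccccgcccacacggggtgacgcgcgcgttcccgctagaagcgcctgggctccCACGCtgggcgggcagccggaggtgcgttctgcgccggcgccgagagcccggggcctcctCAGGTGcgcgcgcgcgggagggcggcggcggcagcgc

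The motifs were searched on both strands. The E-box CANNTG, the general recognition sequence of MyoD and other basic helix-loop-helix factors, was present in 7 of the 8 member windows and in 66.2% of all 32817 promoter windows of this length, so its presence is common. Actn2 held 3 E-boxes, and the sequence CACGTG occurred at 84 to 79 and again at 48 to 43 bases before the start. The core bound by hypoxia-inducible factors is ACGTG or GCGTG, and either form was present in 5 of the 8 member windows and in 38.6% of all windows. CACGTG in Actn2 contains the first form (16.6% of all windows), and Tpm1, Tpm4, Actn1 and Actn4 each held 1 match to the second (28.1% of all windows). The MCAT element CATTCC, bound by TEAD factors, was present in Tpm1 at 56 to 51 bases and in Actn4 at 216 to 211 bases before the start, and in 12.6% of all windows. No member window matched the CArG box of serum response factor (1.47% of all windows) or the MEF2 site (2.92%). The Tpm4 window held no E-box, and the 2 windows of Tpm3, which also fell, held 1 each. These matches are descriptions of the letters in the windows and not evidence of binding.

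The libraries carried the markers of skeletal myoblasts. All 5 of Myod1, Myf5, Des, Cdh15 and Pax7 were above 1 FPKM (fragment counts normalised for transcript length and library size) in every library, with a summed level of 414 to 794 FPKM in the 4 normoxic and 66.6 to 130.1 FPKM in the 4 hypoxic libraries. The 4 myotube markers Myog, Tmem8c, Ckm and Myh3 summed to 3750.1 and 3842 FPKM in normoxic differentiation medium and to between 0.908 and 19.9 FPKM in the other 6 libraries. Of the 5 smooth muscle markers, Myh11 stayed at or under 0.0891 FPKM in every library, while Acta2, which myoblasts also express, ranged from 66.5 to 397 FPKM. Smtn ranged from 22.2 to 90.6 FPKM, Tagln from 4.71 to 24.9 FPKM and Cnn1 from 0.177 to 3.82 FPKM. The 6 cardiac markers summed to between 0.602 and 5.80 FPKM, with Nppa listed at 0 throughout. The 5 fibroblast markers summed to between 153 and 331 FPKM. Of these, Col1a2 ranged from 105 to 295 FPKM, Col1a1 from 17.2 to 47.3, Dcn from 3.33 to 12.9 and Pdgfra from 0.745 to 12.0. Lum was at 0 in 7 libraries. The 2 endothelial markers summed to at most 0.143 FPKM. Of the 2 leukocyte markers Ptprc was at 0 in 7 libraries, and Cd68 was 25.8 and 42.8 FPKM in hypoxic differentiation medium against 1.76 to 3.57 FPKM elsewhere. The 2 libraries of hypoxic differentiation medium stood apart from each other: the SD over genes of the log2 difference between B and A was 0.57 there and 0.36 to 0.44 in the others, and the 5 proliferation markers summed to 31.9 FPKM in A and 178 FPKM in B. The smooth muscle list summed to 135 FPKM in A and 343 FPKM in B. The part of these differences in the results below was not tested.

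Tpm1 and Tpm2, which encode the principal striated muscle tropomyosins, were by far highest in normoxic differentiation medium. Tpm1 read 407 and 386 FPKM (replicate A, then B) in normoxic growth medium, 1520.1 and 1502 in the normoxic differentiation group, 146 and 156 in hypoxic growth medium, and 198 and 292 in hypoxic differentiation medium. No pair of these groups overlapped, and normoxic growth medium held the second level, above both hypoxic groups. Tpm2 read 113 and 106 FPKM in normoxic growth medium, 754 and 782 in the normoxic differentiation group, 114 and 122 in hypoxic growth medium, and 105 and 155 in hypoxic differentiation medium. For Tpm2 the 3 groups outside normoxic differentiation medium lay close together, and the hypoxic differentiation libraries spanned the range of both growth medium groups.

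Tpm3 and Tpm4, which supply much of the cytoskeletal tropomyosin, were lowest in normoxic differentiation medium. Tpm3 also encodes the tropomyosin of slow fibres. Tpm3 read 145 and 142 FPKM in normoxic growth medium, 80.7 and 76.8 in the normoxic differentiation group, 97.3 and 104 in hypoxic growth medium, and 141 and 169 in hypoxic differentiation medium. Its highest groups, hypoxic differentiation and normoxic growth medium, overlapped. Tpm4 read 318 and 331 FPKM in normoxic growth medium, 104 and 98.8 in the normoxic differentiation group, 336 and 334 in hypoxic growth medium, and 344 and 467 in hypoxic differentiation medium. The 2 growth medium groups differed little, and the normoxic differentiation libraries stood alone at the bottom.

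The muscle alpha-actinins were the most restricted members. Actn2, the alpha-actinin of all skeletal fibres and of the heart, was at 43.6 and 40.7 FPKM in the normoxic differentiation libraries and at 0.0223 and 0.0172 FPKM in those of normoxic growth. It was listed at 0 in both hypoxic growth medium libraries, and hypoxic differentiation medium gave 0.0496 FPKM (A) and 0 (B). Actn2 was thus near or at the bottom of the measurable range in 6 of the 8 libraries, and no fold change is given for it. Actn3 read 27.7 and 23.8 FPKM in normoxic growth medium, 176 and 174 in the normoxic differentiation group, 1.95 and 1.57 in hypoxic growth medium, and 2.44 and 4.06 in hypoxic differentiation medium. Its 4 groups did not overlap, and both normoxic groups were above both hypoxic groups.

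On the deposited scale the nonmuscle alpha-actinins were lowest in normoxic differentiation medium, Actn4 by a small margin. Actn1, found in stress fibres and adhesion sites, read 86.1 and 87.8 FPKM in normoxic growth medium, 35.0 and 35.3 in the normoxic differentiation group, 79.6 and 87.2 in hypoxic growth medium, and 76.1 and 127 in hypoxic differentiation medium. The 3 groups other than normoxic differentiation medium overlapped. Actn4, which also cross-links cortical actin at the leading edge, read 129 and 120.0 FPKM in normoxic growth medium, 60.5 and 62.0 in the normoxic differentiation group, 67.7 and 71.5 in hypoxic growth medium, and 65.7 and 93.2 in hypoxic differentiation medium. Normoxic growth medium was the highest group for Actn4 without overlap, and the 2 hypoxic groups overlapped each other. For Actn4, hypoxic growth medium was 1.14-fold above normoxic differentiation medium, a difference that was not tested.

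**Figure D1:**
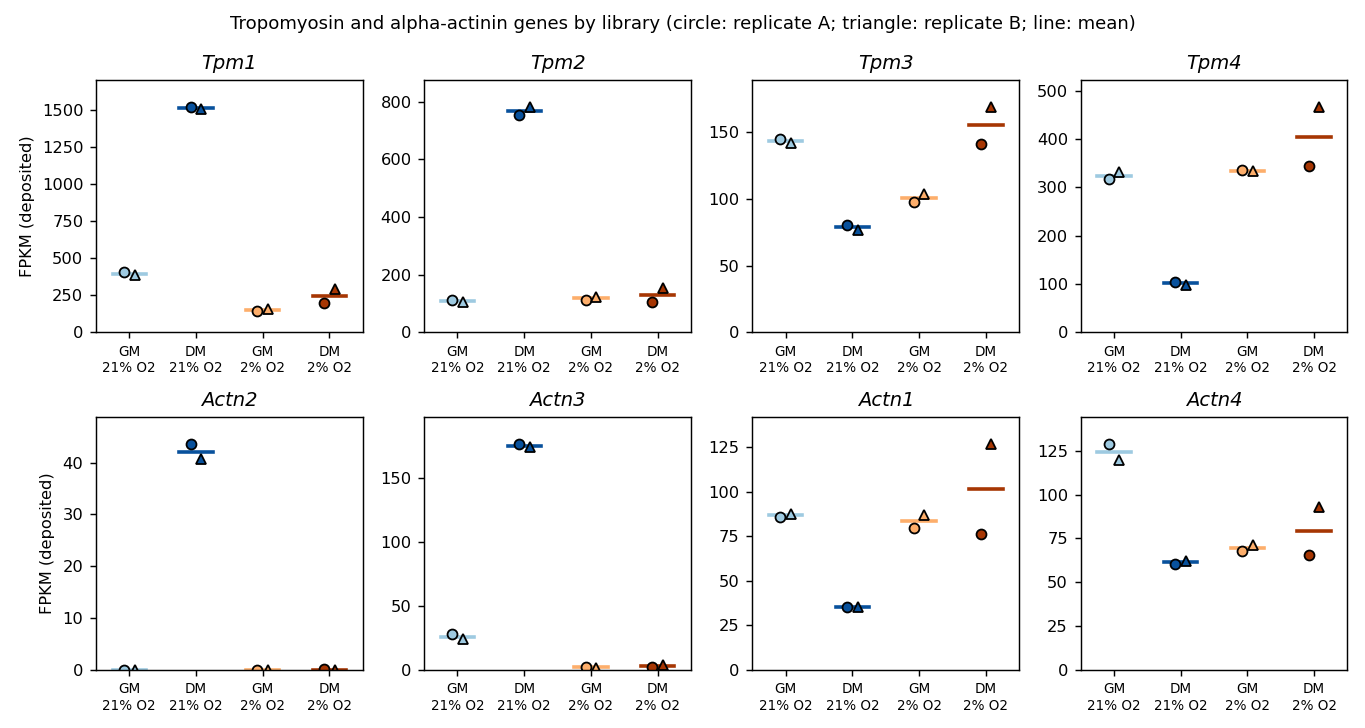
Deposited FPKM of each gene (vertical axis, linear from 0, scaled per gene) in each library, grouped by medium (GM growth, DM differentiation) and oxygen on the horizontal axis. Circles are replicate A, triangles replicate B and lines the group mean. Tpm1, Tpm2, Actn2 and Actn3 peak in DM at 21% oxygen. Tpm3, Tpm4, Actn1 and Actn4 are lowest there, Actn4 by a small margin.

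At 21% oxygen the change to differentiation medium moved 4 members up and 4 down. Changes are on the log2(FPKM + 1) scale, from a limma fit over 12389 genes with Benjamini-Hochberg adjusted p-values and 0.05 as the threshold. This scale understates changes of genes near or under 1 FPKM. Called higher were 4 of the 8 members (Tpm1, Tpm2, Actn2 and Actn3), against 25.5% of all tested genes, and called lower were the other 4 (Tpm3, Tpm4, Actn1 and Actn4), against 41.0% of all genes. Actn2 passed the filter of a group mean of at least 1 FPKM only through its level in normoxic differentiation medium, so it had to differ between groups.

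Tpm1 rose 3.81-fold, from 396 ± 14.4 to 1511 ± 12.5 FPKM (SD, n = 2). Its log2 change was 1.93 ± 0.17 (SE, with an adjusted p of 9.77e-05). Tpm2 rose 7.01-fold, from 109.5 ± 4.47 to 768 ± 20.1 FPKM, with a log2 change of 2.80 ± 0.17 (adjusted p 1.84e-05). Actn3 rose 6.81-fold, from 25.7 ± 2.72 to 175 ± 1.83 FPKM, with a log2 change of 2.72 ± 0.19 (adjusted p 3.15e-05). Actn3 and Tpm2 thus rose by similar factors, and Tpm1, which started from a much higher level, rose less in proportion. Actn2 reached 42.1 ± 2.03 FPKM, a log2 change of 5.40 ± 0.09 (adjusted p 1.82e-07). The size of this change is set by the added 1, because the growth medium values lie near 0: it was 8.46 with 0.1 added instead.

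Among the falling genes, Tpm4 fell furthest in proportion. Its level was 3.20-fold lower in differentiation medium, at 102 ± 3.83 against 325 ± 8.80 FPKM (log2 change -1.67 ± 0.14, adjusted p 7.49e-05). Actn1 was 2.47-fold lower (-1.28 ± 0.21, adjusted p 0.00174), Actn4 2.03-fold lower (-1.01 ± 0.15, adjusted p 0.00119) and Tpm3 1.82-fold lower (-0.86 ± 0.10, adjusted p 0.000315). The median change of all tested genes was -0.20 in this comparison on the deposited scale, and all 4 falls were larger than it. These 4 changes remained lower and past the threshold after median-of-ratios and upper-quartile scaling. In bulk RNA, fewer cells of a type and less RNA per cell cannot be told apart.

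At 2% oxygen the same change of medium moved fewer members, and Actn2 and Actn3 were low in both media. Called higher were 3 of the 8 members (Tpm1, Tpm3 and Actn3), against 23.3% of all genes, and called lower were 0, against 17.6% of all genes. Tpm1 was 1.62-fold higher in hypoxic differentiation than in hypoxic growth medium (log2 change 0.67 ± 0.17, adjusted p 0.0219) and Tpm3 1.54-fold higher (0.62 ± 0.10, adjusted p 0.00389). Actn3 was 1.85-fold higher (0.60 ± 0.19, adjusted p 0.0418), at 3.25 ± 1.15 against 1.76 ± 0.270 FPKM. Tpm2 (0.12 ± 0.17, adjusted p 0.617), Tpm4 (0.26 ± 0.14, adjusted p 0.184), Actn1 (0.24 ± 0.21, adjusted p 0.417), Actn4 (0.17 ± 0.15, adjusted p 0.428) and Actn2 (0.03 ± 0.09, adjusted p 0.796) did not pass the threshold.

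The 2 libraries of hypoxic differentiation medium gave different answers to the comparison at 2% oxygen. Replicate B was above replicate A for 7 of the 8 members, by 1.20-fold (Tpm3) to 1.67-fold (Actn1), where 63.2% of all tested genes were higher in B. In the other 3 groups the B to A ratio of these 7 genes lay between 0.804 and 1.10. The 5 proliferation markers Mki67, Top2a, Ccnb1, Cdk1 and Birc5 were 4.50- to 6.81-fold higher in B than in A of this group. With replicate A left out the change was 0.39 for Tpm2, 0.60 for Actn1, 0.42 for Actn4 and 0.48 for Tpm4. It was 0.95 for Tpm1, 0.74 for Tpm3, 0.88 for Actn3 and 0 for Actn2. With replicate B left out the change was -0.16 for Tpm2, -0.13 for Actn1 and -0.082 for Actn4, none past the threshold, and the change of Tpm1 was 0.39 and that of Actn3 0.32. The call for Tpm3 held in all 16 alternative settings (adjusted p 0.000899 to 0.0376), that for Tpm1 in 11 (0.000553 to 0.114) and that for Actn3 in 5 (0.0027 to 0.194). The part of the proliferation markers in these values was not tested.

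**Figure D2:**
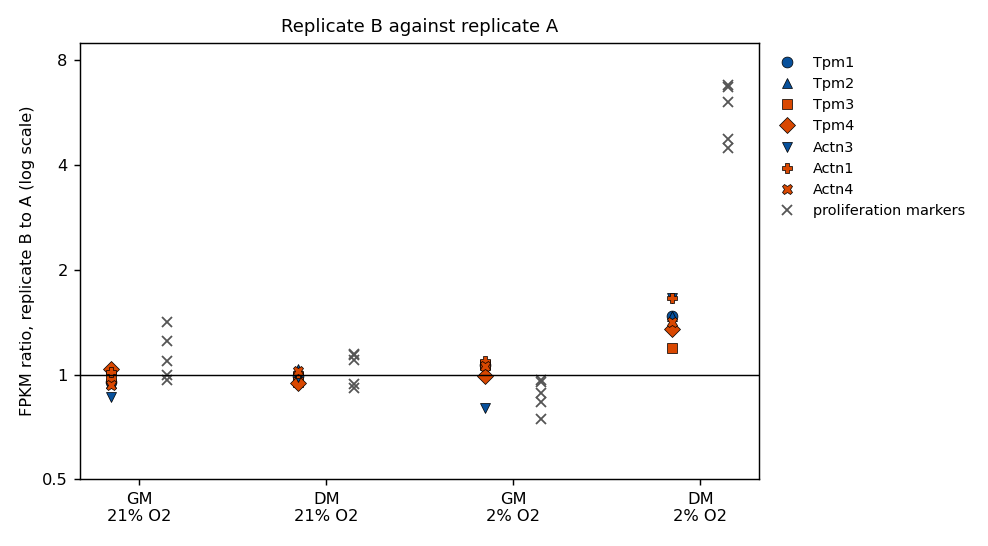
Ratio of replicate B to replicate A (vertical axis, log scale) in each group for the 7 members measured in every library (left of each group; blue for Tpm1, Tpm2 and Actn3, orange for Tpm3, Tpm4, Actn1 and Actn4) and for 5 proliferation markers (crosses, right). In DM at 2% oxygen the members lie between 1.20 and 1.67 and the markers between 4.50 and 6.81.

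Some members also differed between oxygen levels in growth medium. In growth medium 4 of the 8 members were called lower at 2% than at 21% oxygen (Tpm1, Tpm3, Actn3 and Actn4), against 28.0% of all genes, and 0 were called higher, against 13.5% of all genes. Actn3 had the largest difference, 14.6-fold lower (log2 change -3.28 ± 0.19, adjusted p 7.93e-05). Tpm1 was 2.63-fold lower (-1.39 ± 0.17, adjusted p 0.00122), Actn4 1.79-fold lower (-0.83 ± 0.15, adjusted p 0.00609) and Tpm3 1.43-fold lower (-0.51 ± 0.10, adjusted p 0.00715). The median of all genes was -0.14 here. The Tpm3 call was lost without hypoxic growth medium replicate A (-0.46, adjusted p 0.0576; 0.00119 to 0.0576 over the 16 settings).

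The genes that rose and those that fell on normoxic differentiation were not separated by this comparison. Tpm2 (0.10 ± 0.17, adjusted p 0.658), Tpm4 (0.04 ± 0.14, adjusted p 0.831) and Actn1 (-0.06 ± 0.21, adjusted p 0.846) did not pass the threshold, and the sign for Actn1 was positive after median-of-ratios (0.056) and upper-quartile (0.11) scaling. Within the tropomyosins, then, Tpm1 was called lower in hypoxic growth medium while Tpm2 read 118 ± 5.61 against 109.5 ± 4.47 FPKM, although both rose on normoxic differentiation. Actn2 was at or under 0.0223 FPKM in both growth medium groups, so a difference was not detectable at this depth.

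In differentiation medium the groups at 2% and 21% oxygen differed for 7 of the 8 members. Called lower in hypoxia were 4 (Tpm1, Tpm2, Actn2 and Actn3), against 27.7% of all genes, and called higher were 3 (Tpm3, Tpm4 and Actn1), against 37.5% of all genes. This comparison uses the same normoxic differentiation libraries as the first one, which held the extreme level of each gene. Actn3 was 53.9-fold lower in hypoxia (log2 change -5.40 ± 0.19, adjusted p 1.62e-06), Tpm1 6.17-fold lower (-2.65 ± 0.17, adjusted p 2.36e-05) and Tpm2 5.90-fold lower (-2.58 ± 0.17, adjusted p 2.43e-05). Actn2, which had to differ because of the filter, did so by -5.40 ± 0.09 (adjusted p 1.4e-07), and by -8.43 with 0.1 added in place of 1.

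Tpm4 showed the largest difference in the other direction. Its level of 405 ± 86.9 FPKM under hypoxia was 3.99-fold higher (log2 change 1.97 ± 0.14, adjusted p 3.49e-05). Actn1 was 2.88-fold higher (1.46 ± 0.21, adjusted p 0.000976) and Tpm3 1.97-fold higher (0.96 ± 0.10, adjusted p 0.000184). Each SE in this report uses 1 spread per gene shared by all 4 groups, although hypoxic differentiation medium varied more. With the compared libraries alone, the adjusted p was 0.0152 for Actn1 and 0.00502 for Tpm3. Actn4 did not pass the threshold (0.35 ± 0.15, adjusted p 0.0867), and its difference was 0.14 after median-of-ratios scaling (adjusted p 0.325). Leaving out hypoxic differentiation replicate B gave a difference of 0.10, and leaving out replicate A gave 0.60, the latter past the threshold (adjusted p 0.000928; 0.000928 to 0.325 over the 16 settings).

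The interaction is the change with differentiation medium at 2% oxygen minus that at 21%. It passed the threshold for all 8 members, of which Actn2 had to differ because it passed the filter only through normoxic differentiation medium. The interaction contains the normoxic change with its sign reversed, so its signs are not independent of the first comparison. It was negative for 4 (Tpm1, Tpm2, Actn2 and Actn3), against 18.7% of all genes, and positive for 4 (Tpm3, Tpm4, Actn1 and Actn4), against 35.4% of all genes. The values were -1.26 ± 0.24 for Tpm1 (adjusted p 0.00499), -2.68 ± 0.24 for Tpm2 (adjusted p 0.000195), -5.37 ± 0.13 for Actn2 (adjusted p 1.96e-06) and -2.12 ± 0.27 for Actn3 (adjusted p 0.000812). The value for Actn2 again depends on the added 1, and was -8.17 with 0.1. On the positive side they were 1.47 ± 0.14 for Tpm3 (adjusted p 0.000249), 1.93 ± 0.20 for Tpm4 (adjusted p 0.00035), 1.52 ± 0.30 for Actn1 (adjusted p 0.00558) and 1.18 ± 0.22 for Actn4 (adjusted p 0.00426). Over all genes the median interaction was 0.27 as deposited. It was -0.01 with median-of-ratios and 0.07 with upper-quartile scaling, and the sign and call of each member were the same on the 3 scales.

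**Figure D3:**
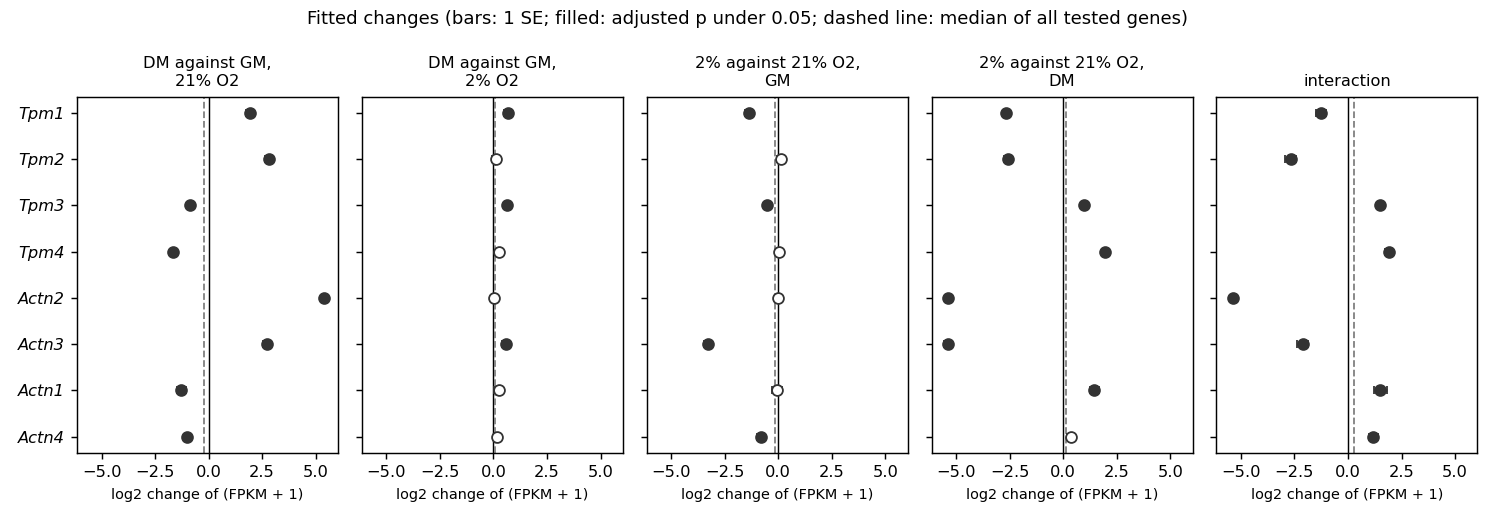
Fitted log2 change of (FPKM + 1) with 1 SE (horizontal axis) for each gene in the 4 comparisons and the interaction. Filled points passed an adjusted p of 0.05 and the dashed line is the median of all tested genes; at 21% oxygen 4 genes lie right and 4 left of 0, and in the interaction the sides are exchanged.

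FPKM values are per length, so genes of a family can be set beside each other within a library. Of the summed FPKM of the 4 alpha-actinin genes, the muscle genes Actn2 and Actn3 took 11.4% (A) and 10.3% (B) in normoxic growth medium, 69.7% and 68.8% in the normoxic differentiation group, 1.31% and 0.977% in hypoxic growth medium, and 1.73% and 1.81% in hypoxic differentiation medium. Normoxic differentiation medium was the only group of the 4 in which muscle genes held the larger share. Actn3 provided most of it, at 55.9% and 55.7% of the family against 13.8% and 13.0% for Actn2. The leading nonmuscle gene differed between oxygen levels as well: Actn4 was the largest member in normoxic growth medium, at 52.5 ± 0.917%, and Actn1 in hypoxic growth medium, at 53.9 ± 0.751% (SD, n = 2). These shares were not tested and are given as a description.

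The tropomyosin pool shifted as well. Tpm1 and Tpm2 together took 52.8% and 51.0% of the summed tropomyosin FPKM in normoxic growth medium, 92.5% and 92.9% in the normoxic differentiation group, 37.5% and 38.8% in hypoxic growth medium, and 38.5% and 41.3% in hypoxic differentiation medium. In the normoxic differentiation libraries Tpm4 therefore made up only 4.24% and 4.02%, whereas it was the largest tropomyosin in both hypoxic groups, at 47.5 ± 1.23% in growth and 43.3 ± 0.361% in differentiation medium. The ratio of Tpm1 to Tpm4 was 1.22 ± 0.0773 in normoxic growth medium, 14.9 ± 0.439 in normoxic differentiation medium, 0.451 ± 0.0213 in hypoxic growth medium and 0.601 ± 0.0360 in hypoxic differentiation medium. The summed tropomyosin level was 974 ± 12.3, 2460 ± 1.03, 704 ± 15.2 and 936 ± 208 FPKM in the same order. The summed alpha-actinin level was 237 ± 7.82, 314 ± 2.60, 155 ± 7.80 and 184 ± 56.4 FPKM, again in this order. In hypoxic differentiation medium the Tpm4 share stayed close between the replicates. The joint share of Tpm1 and Tpm2 had its widest SD of the 4 groups there, 2.01 percentage points. The summed levels of these 2 libraries were further apart in proportion, at 789 FPKM (A) and 1083 FPKM (B) for tropomyosin.

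**Figure D4:**
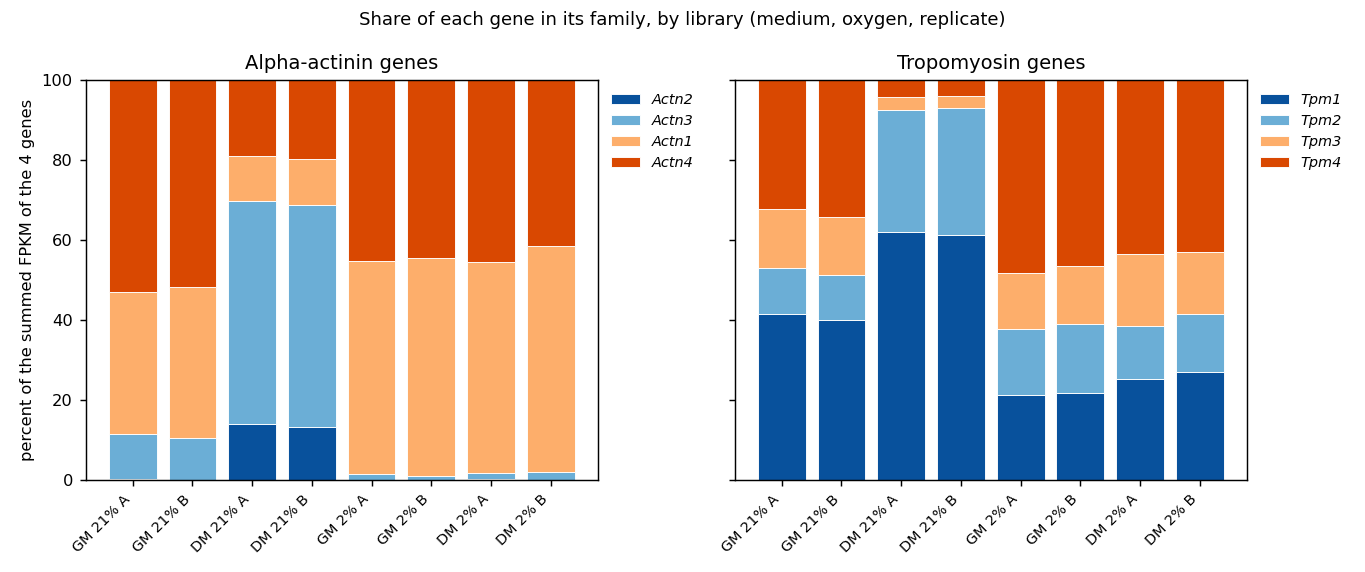
Percent of the summed FPKM of the 4 alpha-actinin genes (left) and the 4 tropomyosin genes (right) held by each gene, 1 bar per library labelled by medium, oxygen and replicate. In the DM libraries at 21% oxygen Actn2 and Actn3 hold 69.7% and 68.8% of the alpha-actinin sum, and Tpm1 and Tpm2 hold 92.5% and 92.9% of the tropomyosin sum.

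The proteins that work with these genes were followed in 3 lists, described by their counts alone. Of 14 muscle thin filament partners of tropomyosin (troponins, striated actins, tropomodulins, leiomodins and nebulin), 13 rose on differentiation at 21% oxygen and 0 fell, with a median log2 change of 7.27 against -0.20 for all genes. At 2% oxygen 5 rose and 2 fell, where 23.3% of all genes rose and 17.6% fell (median 0.32 against 0.07). At 2% against 21% oxygen 9 of them were called lower in growth medium, against 28.0% of all genes (median -1.21 against -0.14). For the same comparison in differentiation medium 13 were lower, against 27.7% of all genes (median -7.57 against 0.15). In either medium 0 were higher, against 13.5% of all genes in growth and 37.5% in differentiation medium. Of the 14, Lmod2, Lmod3 and Neb reached 1 FPKM only in normoxic differentiation medium and so had to differ. Of the other 11, 10 rose at 21% oxygen (25.5% of all genes did), and 10 were lower at 2% oxygen in differentiation medium (27.7% of all genes). The largest rises were those of the fast skeletal troponin genes Tnnc2, from 2.66 ± 1.11 to 1774 ± 69.0 FPKM, and Tnnt3, from 3.17 ± 0.630 to 1574 ± 7.39 FPKM. Tmod1, which caps the pointed end of the thin filament, rose from 5.41 ± 0.318 to 49.9 ± 0.324 FPKM. Tmod4, a skeletal muscle tropomodulin, was the exception, at 1.74 ± 0.427 and 1.42 ± 0.150 FPKM (log2 change -0.17, adjusted p 0.335).

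Of 13 Z-disc partners of alpha-actinin, 12 passed the filter on low values and Myoz3 did not. Of these 12, 8 (Myoz1, Myoz2, Myot, Mypn, Nrap, Ttn, Tcap and Csrp3) reached 1 FPKM only in normoxic differentiation medium, so their being highest there was set by the filter. All 4 others rose on differentiation at 21% oxygen, where 25.5% of all genes did (median 4.01, against -0.20 for all genes). At 2% oxygen 1 of the 4 rose, where 23.3% of all genes did (median 0.26 against 0.07). At 2% against 21% oxygen 2 of the 4 were lower in growth medium, against 28.0% of all genes (median -0.45 against -0.14). All 4 were lower in differentiation medium, against 27.7% of all genes (median -4.23 against 0.15). Csrp3, the muscle LIM protein, reached 346 ± 27.0 FPKM and the calsarcin gene Myoz2 106 ± 13.1 FPKM in normoxic differentiation medium, from at most 0.277 FPKM in any growth medium library. Ldb3, whose product binds alpha-actinin through a PDZ domain, rose from 2.73 ± 0.0558 to 24.3 ± 0.888 FPKM, and Synpo2 from 5.86 ± 0.247 to 33.9 ± 0.327 FPKM.

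The 19 nonmuscle stress fibre and adhesion genes moved in both directions, and 0 of them passed the filter only through normoxic differentiation medium. On differentiation at 21% oxygen 12 fell and 2 rose, where 41.0% of all genes fell and 25.5% rose (median -1.11 against -0.20). At 2% oxygen 2 fell and 3 rose, shares below the 17.6% and 23.3% of all genes (median 0.08 against 0.07). At 2% against 21% oxygen in growth medium 8 were lower and 2 higher, against 28.0% and 13.5% of all genes (median -0.56 against -0.14). In differentiation medium 4 were lower and 10 higher, against 27.7% and 37.5% of all genes (median 0.68 against 0.15). The actin gene Actg1 fell from 1201 ± 160.0 to 286 ± 14.0 FPKM and the calponin gene Cnn2 from 200.3 ± 36.4 to 29.1 ± 2.44 FPKM on normoxic differentiation. The talin gene Tln1 (68.4 ± 1.36 to 105 ± 2.39 FPKM) and Pdlim5, whose product binds alpha-actinin (17.6 ± 0.972 to 34.6 ± 0.863 FPKM), rose.

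**Figure D5:**
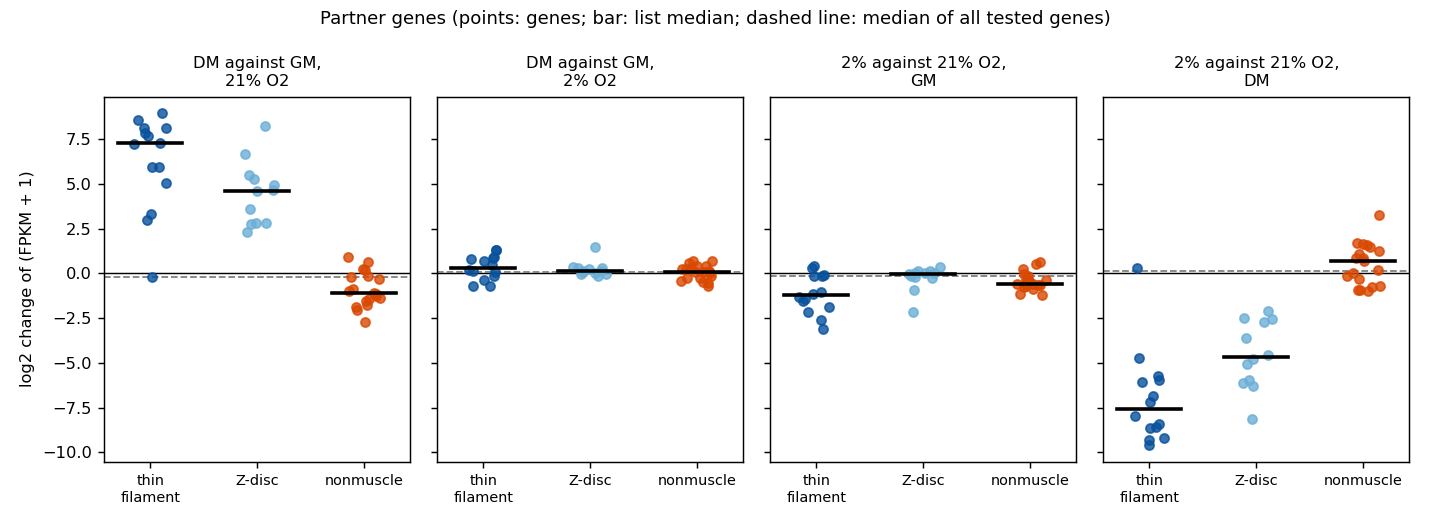
Log2 change of (FPKM + 1) of the tested genes of the 3 partner lists (points; bars are list medians and the dashed line the median of all tested genes) in the 4 comparisons. The thin filament and Z-disc medians are 7.27 and 4.64 for DM against GM at 21% oxygen and -7.57 and -4.68 for 2% against 21% oxygen in DM, with genes included that passed the filter only through DM at 21% oxygen. The single thin filament gene near 0 in both is Tmod4.

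For each member the genes with the most similar profile were listed by Pearson's r of log2(FPKM + 1) over the 8 libraries, among 7453 genes with at least 10 FPKM in their highest group. These coefficients describe 4 clusters of 2 libraries, so a high r needs few shared features. They were Prmt7 and Pnpt1 for Tpm1 (0.998 and 0.995), Ldb3 and Gbp3 for Tpm2 (both 0.998), and Ckmt2 and Chil1 for Actn2 (both 1.000). Ckmt2, Chil1 and Gbp3 had group means under 1 FPKM outside normoxic differentiation medium. Actn2 did too, so its high r with such genes was set by the filter. Ldb3 is also on the list of Z-disc partners. For Actn3 they were Lpar1 and Ank1 (0.998 and 0.997). The nonmuscle members were closest to Homer3 and Fam111a for Actn1 (0.995 and 0.992) and Col18a1 and Nmral1 for Actn4 (0.994 and 0.988). Tpm3 was closest to Chp1 and Actr1a (0.994 and 0.991), and Tpm4 to Myh9 and Dynap (0.996 and 0.994). Myh9 encodes the heavy chain of nonmuscle myosin IIA, the motor of stress fibres, and was 224 FPKM in normoxic growth, 115 in normoxic differentiation, 218 in hypoxic growth and 243 in hypoxic differentiation medium.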

How the data were processed

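Gene expression was taken from the authors' deposited gene table, with 1 column for each of the 8 RNA-seq libraries and no column left unmatched. The table gives no unit; its deposited values were read as FPKM because they are not whole numbers, their sums differ between libraries and the processing notes name Cufflinks. The submitters' processing notes name STAR 2.5.1b, Cufflinks 2.2.1 and the mouse build mm9, with no role or order. RNA libraries were stranded total RNA, per the labels' protocols. The annotation, any scaling between libraries and whether strand was used are not given in the sources used here. No count test was run. With limma 3.58.1 in R 4.3.3, log2(FPKM + 1) was fitted over 12389 genes whose mean reached 1 FPKM in 1 group or more, with 4 group means from all 8 libraries and an intensity trend in the variance prior (4 residual and 2.61 prior degrees of freedom). Tests were two-sided, adjusted by Benjamini-Hochberg, with a threshold of 0.05. The fit was tested on simulated data.

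The absolute depth is unknown. Relative depth, from ratios of low values, ran from 0.633 (hypoxic differentiation B) to 1 (hypoxic differentiation A). By this estimate the same group held the shallowest and the deepest library. Each library had 14917 to 15672 genes above 0. This count did not follow the estimate: hypoxic differentiation B had 15672 genes above 0 and A had 15651.

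Members and gene lists were chosen with earlier results of these data known. Genes with similar profiles and the 2 largest and 2 smallest list changes were named by rule. The GCGTG motif was added after the windows were seen. Alternatives were other scalings, a pseudocount of 0.1, no filter, no trend, array quality weights, a replicate block, the compared libraries alone and each library left out. Chromatin libraries were not used.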

Additional observations from a re-analysis of the deposited data

Results flagged for a closer look

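The change with differentiation medium differed between 2% and 21% oxygen for all 8 genes by the limma interaction (adjusted p 1.96e-06 to 0.00558). Of all genes, 18.7% passed with a negative and 35.4% with a positive value. Actn2 gave the lowest p-value, but it passed the filter only through normoxic differentiation medium and so had to differ between groups. For the others the adjusted p ran from 0.000195 to 0.00558. The interaction contains the normoxic change with its sign reversed, so its signs are not independent of that change. The difference on the log2 scale was -1.26 for Tpm1, -2.68 for Tpm2, -5.37 for Actn2 and -2.12 for Actn3. It was 1.47 for Tpm3, 1.93 for Tpm4, 1.52 for Actn1 and 1.18 for Actn4. Each value kept its sign and its call in all 15 alternative settings.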

How the results depend on the processing

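Of the 30 calls made for the 8 genes over the 5 comparisons, 0 changed sign under any alternative, and all 30 held under both other scalings. The calls for Actn2 among them were set by the filter on low values, so their stability says nothing. The count of genes called for differentiation in hypoxia, 3 in the analysis as reported, was 1 with the libraries compared alone and ranged from 1 to 7 when single libraries were left out. It was 7 without hypoxic differentiation replicate A and 1 without either hypoxic growth medium or either normoxic differentiation library. In that comparison, leaving out single libraries gave -0.16 to 0.39 for Tpm2, -0.13 to 0.60 for Actn1 and -0.082 to 0.42 for Actn4. For hypoxia in growth medium, Actn1 was 0.056 after median-of-ratios scaling, 0.11 after upper-quartile scaling, and -0.13 to 0.0036 when single libraries were left out. The causes were not tested. Correlations of A minus B between groups were -0.17 to 0.04. These cannot show whether libraries of the same letter shared a culture or batch, which the labels do not state. With the replicate block 2 genes were called for differentiation in hypoxia, Actn3 being lost (adjusted p 0.0662). No other call changed with the block. Low values limit Actn2 outside normoxic differentiation medium.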

Other observations

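Multiplied by the relative depth of each library, the values of Actn2 in normoxic growth medium were the same, 0.0155 for both replicates. That of hypoxic differentiation replicate A was 0.0496. Relative depth was itself estimated from ratios of such low values, so the match is not an independent result. The ratio of summed tropomyosin to summed alpha-actinin FPKM was 4.11 ± 0.0837 (SD, n = 2) for growth and 7.84 ± 0.0683 for differentiation medium at 21% oxygen. At 2% oxygen it was 4.55 ± 0.132 for growth and 5.15 ± 0.447 for differentiation medium.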
